A study of Mus musculus with 8 samples.

Results

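The genes described here are those of polyamine synthesis, polyamine breakdown and antizyme control: the antizyme genes Oaz1, Oaz2 and Oaz3, the antizyme inhibitor genes Azin1 and Azin2, the synthesis genes Odc1 and Srm, and the oxidase genes Smox and Paox. A probe set counted for a gene when the platform annotation gave that gene as its only symbol, and the probe sets of a gene were averaged. By this rule 8 of the 9 genes, on 9 probe sets, had values, out of 22180 genes in all, and Paox had none. The group was put forward because Oaz2 stood among the genes with the smallest p between the sexes in an earlier look at these arrays. The differences between the sexes are therefore given for these genes as a description, with no p.

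The RNA came from hearts, labelled as myocardium, of mice heterozygous for Pcyt2 (Pcyt2+/-), aged 8 months. One group held 4 males and the other 4 females, all called biological replicates by the labels, and 1 array was read per heart. All mice carried the same genotype, so sex was the comparison (wild-type mice: not analysed here). Pcyt2 encodes a regulatory enzyme of phosphatidylethanolamine synthesis. The labels name neither the deleted part of the gene nor the cells in each piece of tissue.

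Polyamines are small, positively charged amines that bind nucleic acids and, in heart muscle, block inward rectifier potassium channels from inside the cell. Ornithine decarboxylase, encoded by Odc1, makes putrescine from ornithine, and spermidine synthase, encoded by Srm, turns putrescine into spermidine. Antizymes are made by a ribosomal frameshift that polyamines stimulate, and they hand ornithine decarboxylase to the proteasome and slow polyamine uptake. Antizyme inhibitors resemble ornithine decarboxylase but lack its activity, and by binding antizyme they release the enzyme.

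Promoter sequences show where the 2 broadly expressed antizyme genes differ from each other and how both compare with Odc1, the gene of the enzyme they control. RefSeq promoters (GRCm38.p6, 250 bases before to 50 bases after the start of the gene) were given for 5 of the 9 genes. The windows are chr10:80826406-80826705 for Oaz1, chr9:65676298-65676597 for Oaz2 and chr12:17544623-17544922 for Odc1, all on the plus strand and printed 5′ to 3′. Capitals mark matches on either strand to the GC box GGGCGG, the TATA box TATAAA, the E-box CACGTG and the CCAAT box CCAAT, where overlapping matches run together.
Oaz1: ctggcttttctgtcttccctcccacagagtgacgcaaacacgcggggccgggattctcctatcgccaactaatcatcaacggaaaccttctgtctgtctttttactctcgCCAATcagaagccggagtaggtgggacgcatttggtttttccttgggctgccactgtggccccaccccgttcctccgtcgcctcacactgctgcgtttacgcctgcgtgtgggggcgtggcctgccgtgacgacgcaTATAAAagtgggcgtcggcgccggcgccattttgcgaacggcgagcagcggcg
Oaz2: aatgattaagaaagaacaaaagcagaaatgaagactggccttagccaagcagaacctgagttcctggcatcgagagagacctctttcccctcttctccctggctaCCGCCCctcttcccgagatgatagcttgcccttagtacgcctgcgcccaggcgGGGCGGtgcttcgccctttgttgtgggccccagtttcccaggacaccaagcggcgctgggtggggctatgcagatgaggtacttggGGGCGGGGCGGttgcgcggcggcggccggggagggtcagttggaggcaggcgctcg
Odc1: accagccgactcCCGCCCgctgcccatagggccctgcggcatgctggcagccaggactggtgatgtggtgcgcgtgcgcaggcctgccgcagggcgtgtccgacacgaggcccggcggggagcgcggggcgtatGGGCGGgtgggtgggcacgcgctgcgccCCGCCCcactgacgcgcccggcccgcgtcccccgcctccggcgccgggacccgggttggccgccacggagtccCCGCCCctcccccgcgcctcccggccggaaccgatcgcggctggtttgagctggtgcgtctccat
The Oaz1 window held 1 TATA box and 1 CCAAT box and 0 GC boxes. By contrast, the Oaz2 window held 4 GC boxes, of which 1 pair overlaps, and 0 of the other motifs. The Odc1 window resembled that of Oaz2 in this, with 4 GC boxes and 0 of the others. Bases outside the windows were not searched. Smox, which encodes spermine oxidase, had 6 GC boxes in its window. Among 32851 windows of this length, 35.7% held a GC box, 13.6% a TATA box, 37.4% a CCAAT box and 7.15% an E-box. These motifs were chosen after the values were seen, and a match is a string of letters, not a tested site.

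Each value below is the log2 value of a heart relative to the median of that probe set over the 8 arrays, so it tells how hearts differ and not how abundant a transcript is. Sex-linked genes matched the label of every array: Xist lay between 1.99 and 2.18 in females and between -3.02 and -1.99 in males, and the Y-linked Eif2s3y, Uty and Kdm5d were higher in all 4 males than in all 4 females, which also gives the direction of the scale. Pcyt2 itself averaged 0.09 ± 0.20 in the males and 0.04 ± 0.14 in the females (SD over 4 hearts), which checks no loss of an allele because all hearts were heterozygous. Ventricular muscle genes were even across hearts, with a mean of 6 genes between -0.04 and 0.04 per array, though with centred values their abundance is not known. The mean of 5 atrial genes ran from -1.32 in female 1 to 0.56 in female 2, and the mean of 8 fast skeletal muscle genes from -0.23 in female 4 to 0.79 in male 2. Albumin RNA (Alb) was high in female 1 and female 2, at 1.76 and 2.69, against at most 0.03 elsewhere. Since these are bulk samples, fewer cells of a type and less RNA per cell cannot be told apart.

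Of the antizyme genes, Oaz2 was the one whose values separated by sex, with the males higher. Its values were 0.08, 0.06, 0.17 and 0.15 in males 1 to 4 and -0.16, -0.13, -0.09 and -0.07 in females 1 to 4. All 4 males lay above all 4 females, with a gap between 0.06 in male 2 and -0.07 in female 4. The male mean was 0.12 ± 0.05 and the female mean -0.11 ± 0.04 (SD over 4 hearts each), a difference of -0.23 ± 0.04 (limma SE, females minus males), or a 1.17-fold higher level in males.

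Oaz1, the major antizyme gene in most tissues, leaned the other way and with overlap. Its values were -0.23, 0.02, -0.17 and -0.02 in males 1 to 4 and 0.02, 0.13, 0.09 and -0.12 in females 1 to 4. Female 4 lay among the males, and the difference of 0.13 ± 0.07 (SE) was close to the SD of 0.12 in males and 0.11 in females, and it was 0.08 without male 1. A further probe set carries the names of both Oaz1 and the pseudogene Oaz1-ps and was left out by the rule. There the values were -0.11, -0.01, 0.24 and 0.26 in males against -0.01 to 0.03 in females, a difference of -0.09, so the 2 probe sets that bear the name Oaz1 disagreed in direction.

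Oaz3, an antizyme gene known from haploid male germ cells, was nearly level. It ran from -0.07 in male 4 to 0.10 in male 2 among the males and from -0.01 to 0.02 among the females, with a difference of 0.00 ± 0.04 (SE). Its females lay inside the range of its males.

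**Figure D1:**
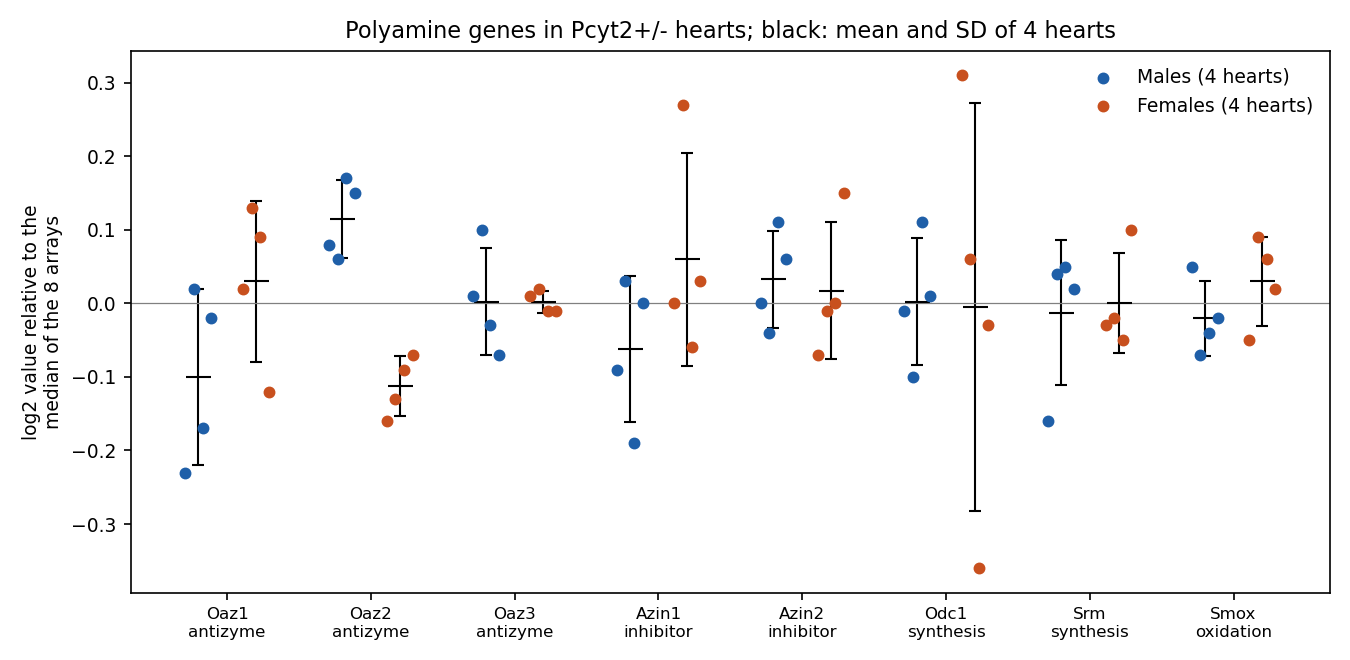
Log2 values of the 8 measured genes relative to each gene's median (vertical axis) in 4 male and 4 female hearts, each point 1 heart, with mean and SD in black. Only for Oaz2 do the sexes separate, with males from 0.06 to 0.17 and females from -0.16 to -0.07, and Odc1 in females spreads most, from -0.36 to 0.31.

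Of the 8 genes, 0 passed an adjusted p of 0.05 between the sexes by limma with Benjamini-Hochberg adjustment over all 22180 genes, where 0.0316% of genes passed. An unadjusted p under 0.05 was reached by 1 of the 8 and by 6.96% of all genes. Values of males and females did not overlap in 1 of the 8, Oaz2, and in 3.74% of all genes. This contrast is the one that brought Oaz2 forward, so nothing is read from these counts. The mean was higher in females for 4 of the 8 genes and in males for the other 4, and their median difference was 0.00, as it was over all genes.

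Oaz2 was read by 2 probe sets, and their separate values show how its small spread arose. The first gave 0.01, 0.12, 0.09 and 0.21 in males 1 to 4 and -0.31, -0.05, -0.14 and -0.01 in females 1 to 4, a difference of -0.24 ± 0.07 (SE). The second gave 0.15, 0.01, 0.25 and 0.10 in the males and -0.01, -0.20, -0.03 and -0.14 in the females, a difference of -0.22 ± 0.06 (SE). Males lay above females on both, although narrowly: on each the lowest male was at 0.01 and the highest female at -0.01.

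Hearts of the same sex were ordered differently by the 2 Oaz2 probe sets. Female 1 was the lowest of the females on the first and the highest on the second, and male 2 was the second highest male on the first and the lowest on the second. After subtracting the mean of each sex, the 2 probe sets correlated at r = -0.59 (Spearman's rho = -0.67; exact permutation of arrays within sex, two-sided, p = 0.155 and 0.101, n = 8 arrays). Averaging such opposed deviations gave a pooled SD within sexes of 0.05, against 0.11 and 0.10 on the probe sets alone, and a standard error of 0.04 in place of 0.07 and 0.06. The RefSeq table lists Oaz2-ps among the synonyms of Oaz2, and which transcripts each probe set reads was not tested.

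**Figure D2:**
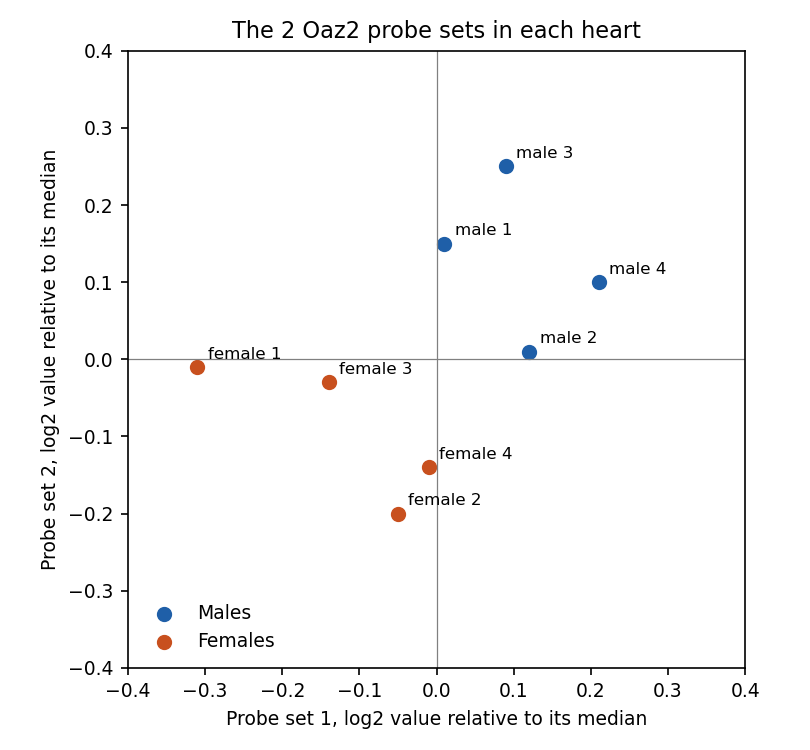
Log2 values of the first Oaz2 probe set (horizontal axis) against the second (vertical axis), each relative to its own median, with 1 labelled point per heart. Males lie to the upper right and females to the lower left, and the 2 probe sets order the hearts of a sex differently, as for female 1 at -0.31 and -0.01 and female 2 at -0.05 and -0.20, or male 1 at 0.01 and 0.15 and male 2 at 0.12 and 0.01.

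Fast skeletal muscle RNA had the strongest correlation with Oaz2 of the 10 marker lists among hearts of the same sex, a negative one that did not pass the adjustment. The 8 fast skeletal muscle genes (Myh4, Myh1, Myh2, Tnnt3, Actn3, Mylpf, Tnni2 and Pvalb) had a mean of 0.54, 0.79, -0.15 and -0.15 in males 1 to 4 and 0.28, 0.07, -0.12 and -0.23 in females 1 to 4. In each sex the heart with the most of this RNA, male 2 and female 1, had the lowest Oaz2. With each sex's mean subtracted, r was -0.97 (exact permutation within sex, two-sided, p = 0.00347, adjusted p = 0.278 over the 80 relations of 8 genes with 10 marker lists) and rho was -0.90 (p = 0.0208, adjusted p = 0.278). Without male 2 and female 1, the arrays farthest from the median of Oaz2, r was again -0.97. On the separate Oaz2 probe sets r was -0.50 and -0.37.

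Between the sexes this marker list ran in the same direction as Oaz2, with all 8 of its genes higher in males on average, while within each sex it ran against Oaz2. The sex difference of Oaz2 was -0.26 without the 3 arrays with the highest Myh4 (male 1, male 2 and female 1), and -0.26 ± 0.03 (SE) with the list's mean as a covariate. Of the 80 relations, 7 had an unadjusted p under 0.05 and 0 passed the adjustment, by Pearson or by Spearman.

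**Figure D3:**
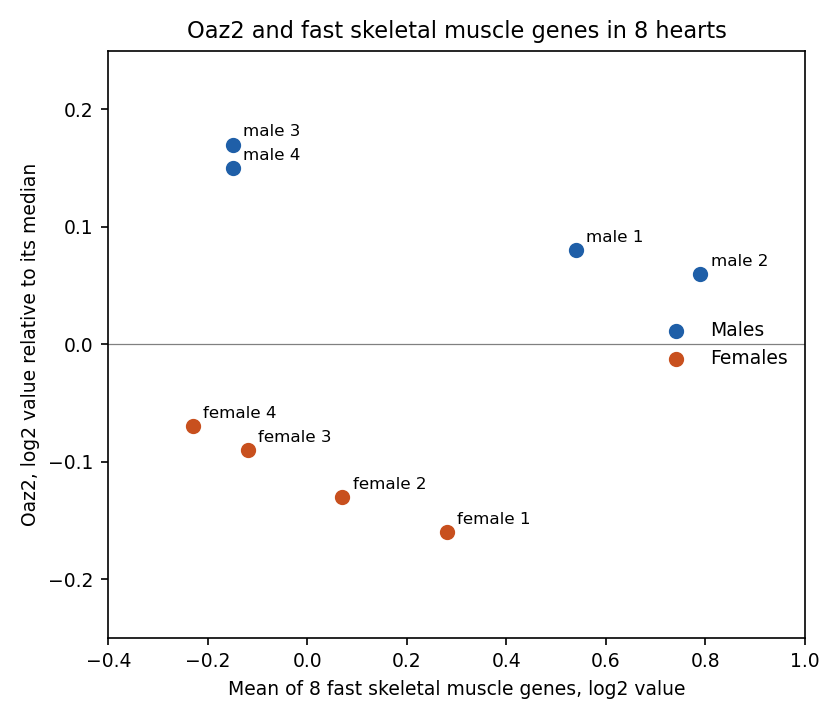
Oaz2 log2 value relative to its median (vertical axis) against the mean log2 value of 8 fast skeletal muscle genes (horizontal axis), with 1 labelled point per heart. Both sexes slope downwards, from male 3 and male 4 at -0.15 on the horizontal axis to male 2 at 0.79, and the 4 males lie above the 4 females throughout.

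Of the other marker lists, the mean of 8 adipocyte genes was -0.20 to 0.16 in males and -0.16 to 0.40 in females, and within sexes it correlated with Oaz2 at r = 0.74 (rho = 0.83; exact permutation p = 0.0243 and 0.0208, adjusted p = 0.417 and 0.278), with r = 0.63 without male 2 and female 1. On the first Oaz2 probe set r with the adipocyte mean was 0.69 and on the second -0.07. With the adipocyte mean as a covariate the Oaz2 difference was -0.27. For 4 smooth muscle genes the mean was -0.10 to 0.27 in males and -0.12 to 0.04 in females, all 4 genes with higher means in males, and within sexes r with Oaz2 was 0.70 (rho = 0.74; exact permutation p = 0.0903 and 0.0799, adjusted p = 0.652 and 0.556), or 0.34 without male 2 and female 1. In Myh11, the smooth muscle myosin gene, the sexes did not overlap (0.01 to 0.29 in males and -0.10 to -0.01 in females). Nor did they in 2 other markers, both higher in females. These were the adipocyte gene Retn (-0.24 to -0.03 in males, 0.03 to 0.73 in females) and the lymphocyte gene Cd3g (-0.29 to -0.03 and 0.03 to 0.24). Of all genes, 3.74% had no overlap. The mean of 5 endothelial genes was -0.03 to 0.07 in males and -0.09 to 0.03 in females. Kdr and Cdh5 had differences of -0.19 and -0.11, and Pecam1, Tek and Emcn had 0.00, 0.01 and 0.03. The r of the endothelial mean with Oaz2 within sexes was 0.66 (rho = 0.67; exact permutation p = 0.106 and 0.115, adjusted p = 0.652 and 0.694), or 0.46 without male 2 and female 1. For 5 fibroblast genes the mean was -0.08 to 0.24 in males and -0.12 to 0.06 in females. The collagen genes Col1a1 and Col1a2 had differences of -0.44 and -0.30, while Pdgfra, Dcn and Lum had 0.03, 0.03 and 0.13. The r of the fibroblast mean with Oaz2 within sexes was -0.37 (rho = -0.10; exact permutation p = 0.484 and 0.889, adjusted p = 0.85 and 0.988), or -0.97 without male 2 and female 1. Myh11, Retn, Cd3g, Kdr, Cdh5, Col1a1 and Col1a2 did not pass between the sexes (limma, adjusted p from 0.563 to 0.671). The part of smooth muscle, endothelial and fibroblast RNA in the Oaz2 difference was not tested. The atrial light chain gene Myl7 was lowest in female 1 (-1.04) and male 3 (-0.95). Within sexes r of the atrial mean with Oaz2 was 0.10 (rho = -0.12; exact permutation p = 0.842 and 0.788, adjusted p = 0.941 and 0.988). With female 1 and female 2, the hearts high in Alb, left out the Oaz2 difference was -0.20.

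The antizyme inhibitor genes showed no separation of the sexes. Azin1, the ubiquitous inhibitor gene, had values of -0.09, 0.03, -0.19 and 0.00 in males 1 to 4 and 0.00, 0.27, -0.06 and 0.03 in females 1 to 4. Female 2 stood above the other hearts, and male 3 lay lowest. Its difference was 0.13 ± 0.08 (SE), against SDs of 0.10 in males and 0.15 in females, and it was 0.06 without female 2 and 0.08 without male 3.

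Azin2, the inhibitor gene known from brain and testis, had values of 0.00, -0.04, 0.11 and 0.06 in males and -0.07, -0.01, 0.00 and 0.15 in females. Female 4 was the highest heart and female 1 the lowest, and the difference was -0.01 ± 0.05 (SE). With the adipocyte mean as a covariate it was -0.10 ± 0.05 (SE).

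Among hearts of one sex, Azin2 and Oaz2 were the pair of genes that varied most alike. After subtraction of each sex's mean, r was 0.86 (exact permutation within sex, two-sided, p = 0.00868) and rho was 0.95 (p = 0.00347), and over the 28 pairs the adjusted p was 0.243 and 0.0972. Without male 2 and female 1, r was 0.75. The first Oaz2 probe set gave r = 0.64 and the second 0.11. Oaz3 ran against Oaz2 at r = -0.75 and rho = -0.81 (exact permutation p = 0.0417 and 0.0451, adjusted p = 0.583 and 0.632), again -0.75 without male 2 and female 1. With Oaz3 the first Oaz2 probe set gave r = -0.18 and the second -0.52. The mean of the fast skeletal muscle genes, in relations that did not pass either, correlated with Azin2 at r = -0.79 (rho = -0.83) and with Oaz3 at r = 0.86 (rho = 0.88), at an adjusted p of 0.417 each for r by the same exact permutation test. The largest r of Azin2 with any marker list was with the adipocyte mean, at 0.86 (rho = 0.86), with that same adjusted p. Without male 3 and female 4, r of Azin2 was 0.66 with the adipocyte mean and -0.94 with the fast skeletal muscle mean.

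Over all 28 pairs r ran from -0.75 to 0.86 with a median of -0.05, 13 above 0 and 15 below. An unadjusted exact permutation p under 0.05 was reached by 2 pairs, and 0 pairs passed the adjustment. Oaz1 and Azin1, an antizyme and an inhibitor gene that both leaned higher in females, had r = 0.55 within sexes (rho = 0.60; exact permutation p = 0.181 and 0.172, adjusted p = 0.812 and 0.813) and 0.77 without male 1 and female 4.

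The synthesis genes had nearly equal means in both sexes, and Odc1 varied more from heart to heart than any of the other 7 genes. Odc1 had values of -0.01, -0.10, 0.11 and 0.01 in males 1 to 4 and 0.31, 0.06, -0.36 and -0.03 in females 1 to 4. Female 1 was the highest and female 3 the lowest of all 8 hearts, while the males kept within 0.11 of 0. Both sexes had a mean of 0.00, with an SD of 0.09 in males and 0.27 in females (n = 4 each), and the difference was -0.01 ± 0.12 (SE). That value hung on single hearts: it was 0.11 without female 3, -0.11 without female 1, -0.17 without the hearts high in Myh4 (male 1, male 2 and female 1) and -0.19 without female 1 and female 2.

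The pooled SD of Odc1 within sexes was 0.20, higher than in 98.4% of the 22180 genes. It was 0.16 without female 1 (94.5% of genes lower) and 0.13 without female 3 (87.9%). Without both it was 0.08 and higher than in 60.6% of genes, so the wide spread rests on these 2 hearts. They were left out as the extremes of Odc1, and the other genes lost the same hearts and not their own extremes. A fall in rank was therefore to be expected. In the same measure Azin1 ranked above 86.3% of genes, Oaz1 above 82.4% and Oaz2 above 21.7%.

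Female 1 and female 3 also differed in Slc4a1, the gene of the red cell anion exchanger and the 1 erythroid marker of 9 listed that had a value under the single-symbol rule. Slc4a1 was -0.39, -0.13, 0.23 and 0.06 in females 1 to 4 and between -0.03 and 0.03 in males, the reverse of the order of Odc1 among females. Within sexes r between Odc1 and Slc4a1 was -0.93 (exact permutation, two-sided, p = 0.033, adjusted p = 0.417 over 80 relations) and rho was -0.83 (p = 0.066, adjusted p = 0.556). Without female 1 and female 3, r was -0.50, so the relation rests on those hearts. With Slc4a1 as a covariate the Odc1 difference between the sexes was -0.06 with an SE of 0.05, against -0.01 with an SE of 0.12 without it.

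**Figure D4:**
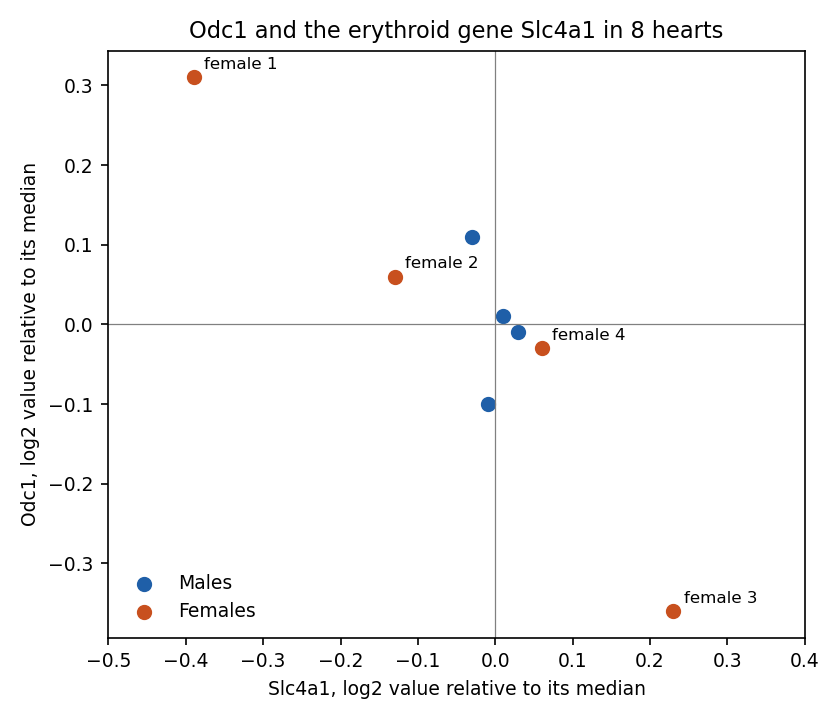
Odc1 log2 value (vertical axis) against Slc4a1 log2 value (horizontal axis), each relative to its median, with 1 point per heart and the females labelled. Female 1 lies at -0.39 for Slc4a1 and 0.31 for Odc1, female 3 at 0.23 and -0.36, and the males gather near 0.

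Srm, the spermidine synthase gene, had values of -0.16, 0.04, 0.05 and 0.02 in males 1 to 4 and -0.03, -0.02, -0.05 and 0.10 in females 1 to 4. Male 1 stood apart below the other males, and the rest of the hearts overlapped. The difference was 0.01 ± 0.06 (SE).

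Of the oxidase genes Smox had values. Spermine oxidase turns spermine back into spermidine and releases hydrogen peroxide. Its gene had 0.05, -0.07, -0.04 and -0.02 in males 1 to 4 and -0.05, 0.09, 0.06 and 0.02 in females 1 to 4. The 3 highest females lay above the 3 lowest males, with male 1 and female 1 the other way round, and the difference was 0.05 ± 0.04 (SE).

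Further genes of the pathway were taken from a list of 40, of which 33 had values. Between the sexes 0 of the 33 passed in either direction (limma, adjusted over all genes), the mean was higher in females for 18 and in males for 15, and the median difference was 0.01 against 0.00 over all genes. An unadjusted p under 0.05 was reached by 1 of the 33 and by 6.96% of all genes. Amd1 and Amd2, genes of the decarboxylase that supplies the aminopropyl donor, and Sms, the spermine synthase gene, are not analysed here.

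All 6 genes of acetylation and amine oxidation had higher means in males, by 0.01 to 0.10, and 0 passed. Among them Sat1, the X-linked gene of the acetyltransferase that starts polyamine breakdown, had the smallest p. Its values were -0.06, 0.20, -0.06 and 0.12 in males and 0.01, 0.08, -0.01 and -0.25 in females, overlapping widely, with a difference of -0.10 ± 0.08 (SE, limma adjusted p = 0.899).

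Genes of ornithine and arginine supply had higher means in females in 4 of 6. Oat, whose enzyme converts ornithine to glutamate semialdehyde, had the smallest p there, with a difference of 0.10 ± 0.05 (SE, limma adjusted p = 0.752). The arginine transporter gene Slc7a1 had a difference of 0.12 ± 0.07 (SE, limma adjusted p = 0.797), and the arginase genes Arg1 and Arg2 had 0.02 and -0.03. In S-adenosylmethionine supply 3 of 4 genes had higher means in females, and Ahcy, the gene of the enzyme that clears S-adenosylhomocysteine, had the smallest p with -0.05 ± 0.04 (SE, limma adjusted p = 0.871).

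Polyamine transport genes had higher means in females in 6 of 8. Slc18b1, a vesicular polyamine transporter gene, had the smallest p with a difference of 0.06 ± 0.04 (SE, limma adjusted p = 0.83), and Atp13a2 and Atp13a3, which encode polyamine-transporting pumps of endosomes and lysosomes, had 0.03 and -0.03. In the hypusine pathway, in which spermidine is used to modify the translation factor eIF5A, 3 of 4 genes had higher means in males. Eif5a had a difference of -0.07 ± 0.05 (SE, limma adjusted p = 0.859), and Dhps and Dohh, the genes of the 2 modifying enzymes, had -0.04 and 0.04.

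Genes of the Myc network, which drives Odc1 transcription in many cells, had higher means in females in 4 of 5. Mxd1, a Max partner that opposes Myc, had values of 0.00, -0.10, 0.00 and -0.18 in males 1 to 4 and 0.22, -0.07, 0.15 and 0.09 in females 1 to 4. Female 2 lay among the males, and the difference of 0.17 ± 0.07 (SE) did not pass (limma adjusted p = 0.673). Mxi1, Max and Myc had differences of 0.12, 0.10 and 0.06, and Mycn one of -0.06.

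**Figure D5:**
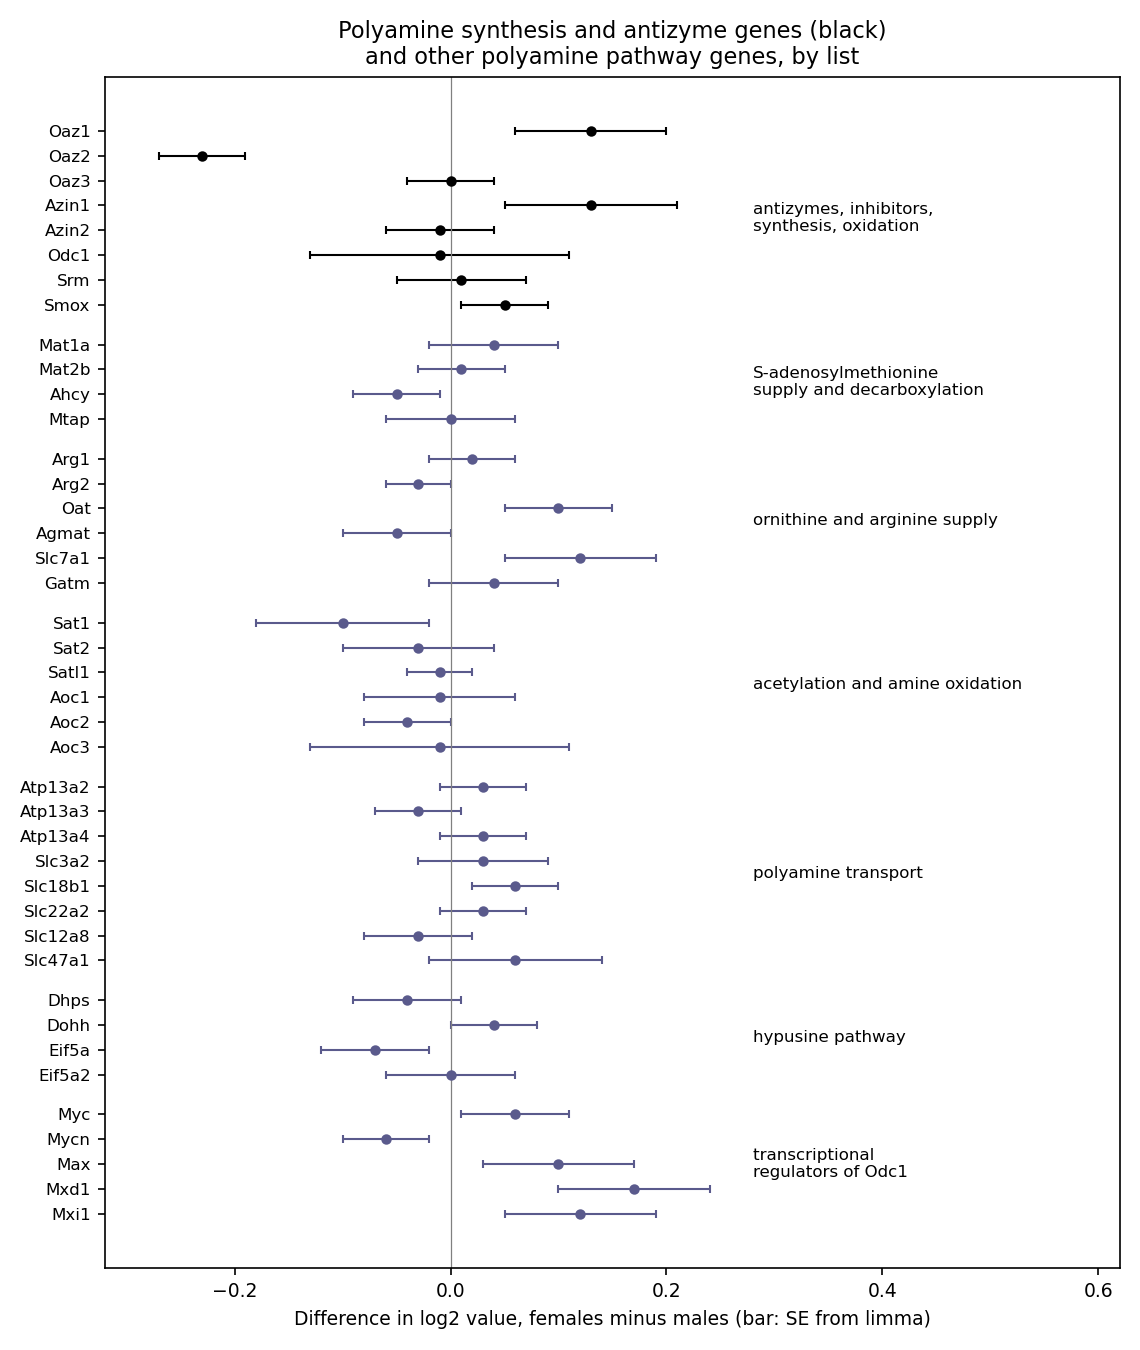
Difference in log2 value between females and males (horizontal axis, bar: limma SE) for the 8 genes in black and 33 further genes of the pathway, grouped by list on the vertical axis. Oaz2 at -0.23 lies farthest from 0, the further genes lie between -0.10 and 0.17, and 0 of them passed the adjustment.

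Genes whose pattern among hearts of one sex was most like that of Oaz2 were sought among 17434 named genes, by Pearson's r over the 8 arrays after subtracting each sex's mean. Closest was Csnk1g2, a casein kinase gene, at 0.99 (rho = 0.98), followed at 0.97 each by Phf11, Slc8b1, which encodes a mitochondrial sodium-calcium exchanger, Clhc1 and Flii, an actin-binding protein gene. With the separate Oaz2 probe sets these 5 genes had r between 0.35 and 0.62 on the first and between 0.24 and 0.54 on the second. For Odc1 the closest were Marchf7, a ubiquitin ligase gene, at 0.99, and Cdk5r1, Ric1, Samm50 and Hoxd9 at 0.96 each. Without female 1 and female 3 their r ran from 0.73 for Ric1 to 0.93 for Marchf7. These are the highest of many correlations over few arrays and are given as a description.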

How the data were processed

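Biotin-labelled cRNA from 100 ng of total heart RNA was read on 8 Affymetrix arrays, per the labels' protocols. The deposited table holds log2 values for 34351 probe sets, and in all 34351 the median over the arrays is 0 (tolerance 1e-06). The log base was taken as 2, and the normalization software is not given in the sources used here. The number of arrays limits the precision. Of the probe sets, 23521 had 1 gene symbol, 1814 several and 9016 were unnamed here. Probe sets of a gene were averaged to 22180 genes. Centred values hold no brightness, so no filter on dim probes was applied.

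Sexes were compared with limma 3.58.1 in R 4.3.3 (lmFit, eBayes, Benjamini-Hochberg over all genes, threshold 0.05), which was tested on simulated data. Correlations used values minus each sex's mean, with exact permutation of arrays within sex (576 arrangements, smallest p 0.00174). The genes and lists were chosen with earlier results of these data known. Named were all genes of the group, in each pathway list the gene with the smallest p and any past the threshold, the 5 genes most like Oaz2 and the 5 most like Odc1 (without predicted, small RNA, olfactory and vomeronasal genes), sex-linked genes and Pcyt2. Further genes were picked with their values known. Alternatives were other scalings, single probe sets, array weights, trend and robust settings, a replicate block, covariates, autosomal genes only and arrays left out. The covariate of fast skeletal muscle genes was added after seeing the data.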

Additional observations from a re-analysis of the deposited data

Results flagged for a closer look

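Among 20 genes named in the text, each checked in males and in females, 2 hearts stood apart from the other 3 of their sex by Dixon's test for 4 samples, where chance marks about 1 in 20 groups. Srm in male 1 was -0.16 against 0.02 to 0.05 in the other males, with a gap of 0.887 of the range. Xist in male 4 was -1.99 against -3.02 to -2.89, with a gap of 0.869 of the range, and remained below every female.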

How the results depend on the processing

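The Oaz2 difference kept its direction in all 22 alternatives, from -0.27 to -0.20, and those of Oaz1 (0.08 to 0.18), Azin1 (0.05 to 0.18) and Smox (0.03 to 0.09) in all 21. For Oaz2 all 4 males lay above all 4 females, so leaving arrays out could not reverse it. Trend and robust settings, autosomal genes only and the replicate block leave a difference of means unchanged. Nothing is read from these counts. The direction changed in some alternatives for Oaz3 (-0.03 to 0.05), Odc1 (-0.19 to 0.11), Srm (-0.05 to 0.04) and Azin2 (-0.10 to 0.04), and Azin2 reached -0.10 with the adipocyte covariate. It is not settled for Oaz1, Azin1 and Smox either. Their 95% intervals by limma in the main fit held 0: -0.03 to 0.29, -0.05 to 0.30 and -0.04 to 0.14. With the replicate block the SE of Azin1 was 0.04, against 0.08 in the main fit, while Oaz1 had 0.07 and Smox 0.05. Members of the group passed in 0 cases under every alternative run, the 0.1 threshold included, and so did the further pathway genes at 0.05. Among all genes 7 passed, 3 with quantile normalization, 4 to 7 with 1 array left out (4 without male 3) and 10 at an adjusted p under 0.1. With autosomal genes only, 0 of 21062 passed by limma and 1453 had an unadjusted p under 0.05. With the replicate block 8 genes passed. The Oaz2 difference was -0.23, the same by construction, because each number holds 1 male and 1 female. Whether the replicate numbers pair the samples was not tested. Same-numbered arrays correlated at -0.0857, 0.0889, 0.126 and -0.0403 after subtracting sex means. Of the 8 arrays 4 correlated best with the array of their own number among the 4 of the other sex. Centring removed all probe brightness, so signal over background is not known.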
